A study of Mus musculus with 14 samples.

Results

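Regulatory T cells (Tregs) are CD4+ T cells that restrain immune responses. Their identity rests on FOXP3, a forkhead transcription factor encoded on the X chromosome. The 6 genes described here are Foxp3 and 5 genes that mouse Tregs express selectively, Gpr83, Ecm1, Capg, Hdac9 and Plagl1. They were picked by name, with measured values of these same libraries known, from 48363 genes with values. Their differences between groups are therefore described by size and error, with no p value, and the number of them that passed a threshold stands only beside the share of all genes that did. All 6 passed the filter on low values, which 16241 genes passed.

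Tregs were sorted from pooled spleen and inguinal, axillary and brachial lymph nodes of untreated mice, and their RNA was sequenced in 14 libraries. Of these, 5 were miR-15/16 cKO Tregs (miR-15/16 fl/fl Foxp3Cre) and 4 were bulk WT Tregs (miR-15/16 wt/wt Foxp3Cre). A further 2 were the CD25lo bin and 3 the CD25hi bin of WT Tregs. All groups, WT included, carry the same Foxp3 allele, from which Cre and a yellow fluorescent reporter are expressed. Cre is thus driven by the Foxp3 locus, and the sort for the reporter kept only cells with an active Foxp3 locus. Levels of Foxp3 thus come from cells already gated on that locus. The deposited replicates are biological replicates, with no statement of which animals or litters they share, so the errors below measure the spread between these libraries. Mouse ages are not given per library in the sources used here. Values are normalized counts, that is reads in a gene divided by a size factor that scales each library for depth. Reads in genes numbered 30055573 to 35226685 per library.

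FOXP3 partly maintains its own gene, and IL-2, sensed through a receptor whose α chain is CD25 (encoded by Il2ra), supports Foxp3 through the transcription factor STAT5. Gpr83 is an orphan-type G protein-coupled receptor, and Ecm1 encodes a secreted extracellular matrix glycoprotein. Capg encodes an actin filament capping protein of the gelsolin family, which macrophages also make in quantity. Hdac9 is a class IIa histone deacetylase that acts as a transcriptional corepressor, and Plagl1 (Zac1) is an imprinted zinc finger transcription factor. MicroRNAs miR-15 and miR-16 repress mRNAs that pair with their seed, bases 2 to 8.

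The 3 mature miRNAs deleted in cKO Tregs are shown because they share 1 seed, in capitals below (RefSeq, GRCm38.p6). They are made from chr14:61632075-61632096 (miR-15a, minus strand), chr3:69009775-69009796 (miR-15b, plus strand) and, for miR-16, from both clusters.
mmu-miR-15a-5p: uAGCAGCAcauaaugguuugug
mmu-miR-15b-5p: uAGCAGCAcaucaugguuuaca
mmu-miR-16-5p: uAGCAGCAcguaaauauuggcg
The 4 miRNA genes were listed at 0 in all 14 libraries, so the deletion itself was not measured. Dleu2, the host transcript of the miR-15a cluster, was at 2519.2 ± 233.2 normalized counts in cKO Tregs (SD, n = 5) and 711.1 ± 449.1 in WT Tregs (SD, n = 4). Smc4, the host gene of the miR-15b cluster, was at 41009.1 ± 1584.2 in cKO Tregs and 40462.5 ± 781.5 in WT Tregs.

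Matches to this seed were searched in the longest annotated 3′ UTR of each gene, in the sense strand, as the full match TGCTGCTA and as the shorter forms within it, TGCTGCT and also GCTGCTA, with each place counted once. Of 12725 tested genes with a 3′ UTR, 27.8% held at least 1 match. Among the 6 genes only Plagl1 held one, of the last form, at base 339 of a 3′ UTR of 2590 bases, on chr10:13129443-13129449 (GRCm38, GENCODE, plus strand). The site is shown with its flanks and the match in capitals, since it is the only one among the 6 genes.
Plagl1 3′ UTR site: caaaacatgaGCTGCTAttttgtaaat
Foxp3 (2202 bases), Gpr83 (1990 bases) and Hdac9 (4721 bases) had long 3′ UTRs with no match. Those of Ecm1 (93 bases) and Capg (108 bases) were short. Of the tested genes with a 3′ UTR within 1.25-fold of the length of that of Hdac9, 64.9% held a match, against 2.1% for the length of Ecm1 and 1.84% for that of Capg. A match describes letters and not a site of action.

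Foxp3 lies at chrX:7579676-7595243 (plus strand, GRCm38). It overlaps Flicr, a noncoding RNA gene annotated on the same strand, which averaged 2.62% of its level. How reads in the shared stretch were assigned is not given in the sources used here. The 250 bases before each RefSeq start of the 6 genes (8 windows) were searched on both strands for TTCNNNGAA, the core STAT motif, and for GTAAACA, a forkhead motif. The STAT motif was in 1 of the 8 windows and in 7.02% of all 32851 RefSeq windows of this length. The forkhead motif was in 0 of the 8 windows and in 3.17% of all. The window with the STAT motif precedes the second Foxp3 start, and the motif, in capitals, begins 139 bases before that start. It is shown because STAT5 is known to carry the IL-2 signal to this gene, and the match itself is a description of letters.
Foxp3 chrX:7580233-7580482 (GRCm38.p6, plus strand): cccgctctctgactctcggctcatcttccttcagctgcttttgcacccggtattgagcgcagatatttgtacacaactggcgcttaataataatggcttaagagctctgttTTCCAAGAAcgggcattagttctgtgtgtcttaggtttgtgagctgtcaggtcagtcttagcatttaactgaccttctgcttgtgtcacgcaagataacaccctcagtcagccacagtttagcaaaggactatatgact

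Per kilobase of exon, averaged over the 14 libraries, Foxp3 was the highest of the 6 genes at 4219.6 normalized counts per kb, above 98.7% of the tested genes. Ecm1 followed at 2293.2 and Capg at 1981.4 normalized counts per kb, above 96.9% and 96.1% of the tested genes. Gpr83 was at 850.3, Plagl1 at 138.3 and Hdac9 at 21.6 normalized counts per kb, the last above only 29.1% of tested genes. Il2ra, as a further Treg marker, had 13358.7 normalized counts or more in every library.

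The 9 bulk libraries fell into 2 sets that crossed genotype. A list of 10 immediate early and stress genes, chosen after the data were seen, had a mean log2 level of 12.88, 13.3, 13.7, 14.33 and 14.83 in cKO Tregs and of 15.02, 14.92, 14.92 and 12.52 in WT Tregs. Thus cKO replicates 1 to 3 and WT replicate 4 were low, and cKO replicates 4 and 5 and WT replicates 1 to 3 were high. It was 12.47 to 13.09 in CD25lo and 12.24 to 12.57 in CD25hi Tregs. The mean log2 level of 12 myeloid markers split the bulk libraries in the same way, at 5.52, 4.6, 5.43, 7.75 and 6.73 in cKO Tregs and 8.12, 7.73, 7.92 and 4.59 in WT Tregs. The labels name no such sets.

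Foxp3 was nearly level between cKO and WT Tregs and lower in CD25lo than in CD25hi Tregs. It had 19651.6, 18858.0, 18375.3, 18136.6 and 17803.6 normalized counts in cKO Tregs, against 18893.7, 19891.3, 18053.2 and 21324.1 in WT Tregs. The groups overlapped, and WT replicate 4 was the highest of the 9 bulk libraries. The group means were 18565.0 ± 718.6 in cKO Tregs (SD, n = 5) and 19540.6 ± 1406.5 in WT Tregs (SD, n = 4), a difference of -0.07 on the log2(normalized count + 1) scale (SE 0.06, 95% interval -0.20 to 0.06).

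In the sorted bins, Foxp3 had 16297.6 and 14545.5 normalized counts in CD25lo Tregs, against 24370.2, 21788.4 and 22394.1 in CD25hi Tregs. Both CD25lo libraries lay below every other library of the series. CD25lo Tregs averaged 67.5% of the level of CD25hi Tregs (log2 difference -0.57, SE 0.08). From low to high the order was CD25lo, cKO, WT and CD25hi, and of these neighbours only cKO and WT overlapped. In bulk RNA, fewer cells with a high level and less RNA per cell cannot be told apart.

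**Figure D1:**
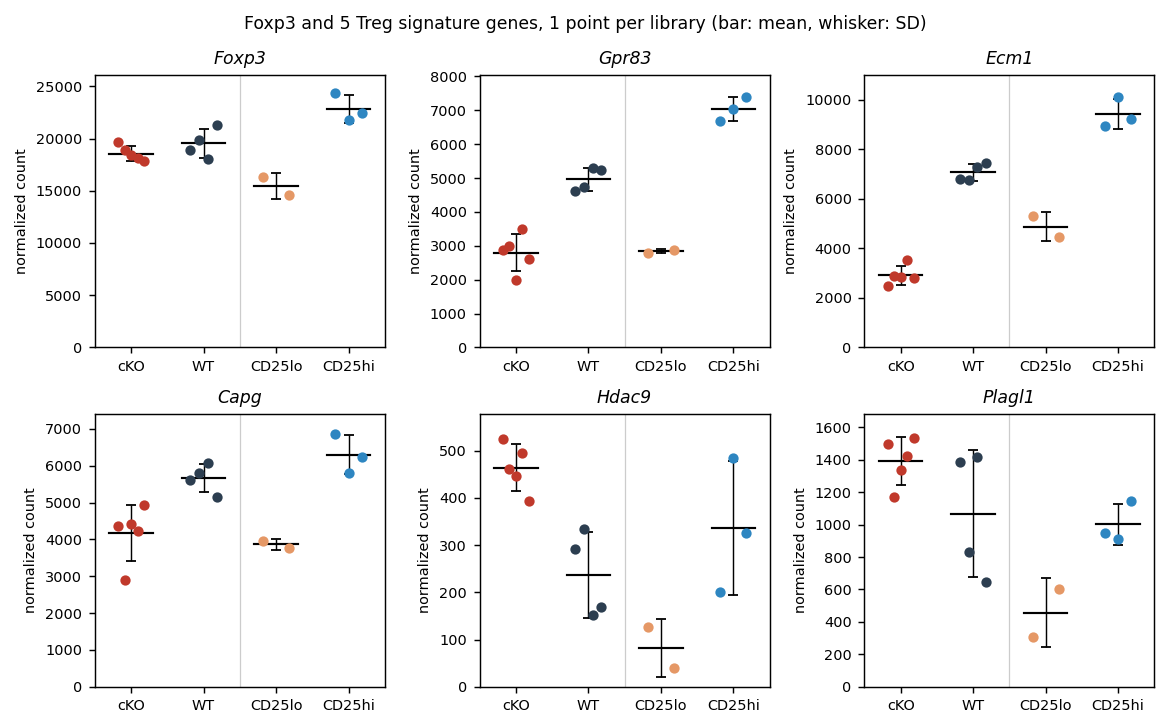
Normalized counts of the 6 genes, 1 point per library, for cKO, WT, CD25lo and CD25hi Tregs, with the group mean (bar) and SD (whisker) on axes that start at 0. Gpr83 and Ecm1 of cKO Tregs lie below all WT libraries, Foxp3 of cKO and WT Tregs overlaps, and Hdac9 of cKO Tregs lies above all WT libraries.

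Gpr83, at chr9:14860210-14870789 (plus strand), was lower in cKO than in WT Tregs and lower in CD25lo than in CD25hi Tregs. It had 2885.4, 3006.8, 1986.5, 3484.7 and 2625.7 normalized counts in cKO Tregs, against 4605.5, 4740.5, 5290.2 and 5229.0 in WT Tregs. No cKO library reached the lowest WT library. cKO Tregs averaged 56.3% of the WT level (log2 difference -0.85, SE 0.11).

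CD25lo Tregs had 2794.2 and 2877.4 normalized counts of Gpr83, and CD25hi Tregs had 6687.4, 7036.3 and 7403.2. The bins stood apart, and CD25lo Tregs averaged 40.3% of the CD25hi level (log2 difference -1.31, SE 0.15). The means of cKO Tregs (2797.8 ± 550.2, SD, n = 5) and CD25lo Tregs (2835.8 ± 58.83, SD, n = 2) were neighbours in the order of levels and overlapped. WT and CD25hi Tregs stood above them, each apart from the next group.

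Ecm1, at chr3:95734147-95739569 (minus strand), had a larger difference between cKO and WT Tregs than the other 5 genes, except that Hdac9 was ahead with sex as a term (1.60, against -1.34 for Ecm1). Its 2478.6, 2901.7, 2850.9, 3523.7 and 2807.7 normalized counts in cKO Tregs compare with 6806.7, 6753.1, 7302.0 and 7452.0 in WT Tregs. All 5 cKO libraries lay below all 4 WT libraries. cKO Tregs averaged 41.1% of the WT level (log2 difference -1.29, SE 0.09).

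In CD25lo Tregs Ecm1 had 5307.4 and 4457.9 normalized counts, against 8937.1, 10120.6 and 9235.6 in CD25hi Tregs. CD25lo Tregs averaged 51.8% of the CD25hi level (log2 difference -0.95, SE 0.12). Ecm1 was the only one of the 6 genes for which every cKO library was also below both CD25lo libraries, with a gap of 934.2 normalized counts. The order from low to high was cKO, CD25lo, WT and CD25hi, with no overlap between neighbours.

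Capg, at chr6:72544391-72562983 (plus strand), was lower in cKO and in CD25lo Tregs by a smaller step. cKO Tregs had 4369.7, 2911.9, 4409.1, 4226.8 and 4937.6 normalized counts, and WT Tregs had 5625.9, 5793.2, 6070.9 and 5162.2. The groups stood apart by 224.6 normalized counts, between cKO replicate 5 and WT replicate 4. The cKO mean was 73.7% of the WT mean (log2 difference -0.46, SE 0.11), and cKO replicate 2 was the lowest library of the series.

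In the bins Capg had 3968.9 and 3763.5 normalized counts in CD25lo Tregs, against 6860.0, 5807.9 and 6246.3 in CD25hi Tregs (log2 difference -0.70, SE 0.15). CD25lo and cKO Tregs overlapped, as did WT and CD25hi Tregs. Myeloid markers moved between libraries too. Their 12 genes summed to 2146.4 to 6798.3 normalized counts in cKO, 2157.1 to 9706.5 in WT, 2588.6 to 3061.0 in CD25lo and 1700.1 to 2487.7 in CD25hi Tregs. Up to 7 of the 12 were at 0 in a library. Cd14 was at 0 in all 5 sorted libraries, Lyz2 averaged 36.96 in cKO and 52.17 in WT Tregs, and Csf1r averaged 618.8 in cKO and 1903.9 in WT Tregs. Csf1r missed the threshold between cKO and WT Tregs (adjusted p = 0.0795 with limma). The part of these markers in the Capg values was not tested.

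Hdac9 was higher in cKO than in WT Tregs and lower in CD25lo than in CD25hi Tregs. The gene, at chr12:34047580-34917095 (minus strand), had 525.0, 461.3, 445.8, 494.1 and 393.3 normalized counts in cKO Tregs, against 291.6, 334.2, 151.5 and 168.5 in WT Tregs. Every cKO library was above every WT library. The cKO mean was 1.96-fold the WT mean (log2 difference 1.04, SE 0.35), and the WT libraries spread widely, with a coefficient of variation of 38.2%.

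CD25lo Tregs had 125.5 and 39.4 normalized counts of Hdac9, and CD25hi Tregs had 200.8, 483.8 and 324.7. The bins did not overlap, with a log2 difference of -2.15 (SE 0.47), the largest of the 6 genes in this comparison and the least precise. Without CD25lo replicate 1 it was -2.97, and without CD25lo replicate 2 it was -1.33, less than that of Plagl1 (-1.70). The lowest library held 39 reads of this gene, so counting alone adds error there. From high to low the groups were cKO, CD25hi, WT and CD25lo, and only WT and CD25lo were neighbours without overlap.

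Plagl1, at chr10:13060504-13131694 (plus strand), had 1499.4, 1167.2, 1333.5, 1423.3 and 1532.5 normalized counts in cKO Tregs, against 1382.8, 831.0, 1416.1 and 643.4 in WT Tregs. The groups overlapped: WT replicates 1 and 3 were within the cKO range and WT replicates 2 and 4 below it. The log2 difference was 0.45 (SE 0.22, 95% interval -0.01 to 0.91), and it lay between 0.24 and 0.61 as each library was left out in turn.

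CD25lo Tregs had 305.5 and 605.6 normalized counts of Plagl1, against 947.6, 909.6 and 1144.3 in CD25hi Tregs. The mean of CD25lo Tregs was 45.5% of that of CD25hi Tregs (log2 difference -1.21, SE 0.30). Without CD25lo replicate 1 the difference was -0.72, and without CD25lo replicate 2 it was -1.70. cKO, WT and CD25hi Tregs overlapped as neighbours in the order from high to low, and CD25lo Tregs stood below them.

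**Figure D2:**
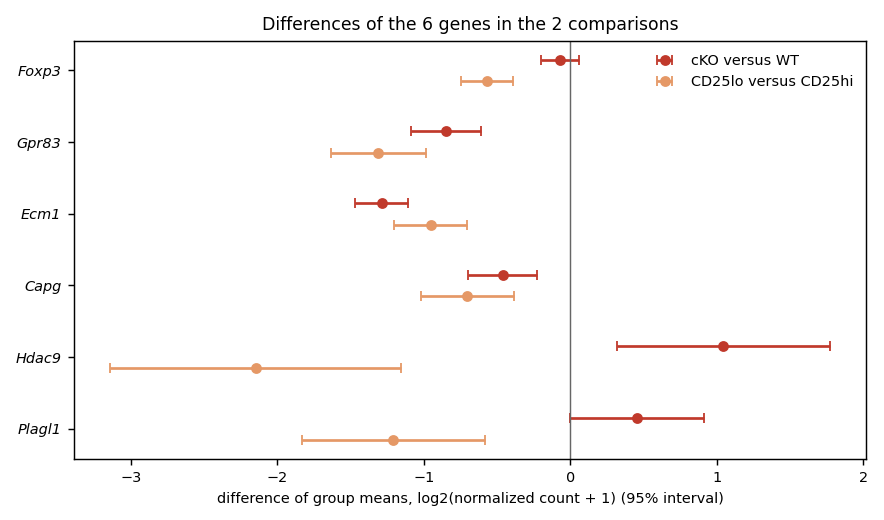
Difference of group means on the log2(normalized count + 1) scale for each of the 6 genes, with its 95% interval from limma, for cKO versus WT and for CD25lo versus CD25hi Tregs. Gpr83, Ecm1 and Capg lie left of 0 in both comparisons, the Foxp3 interval spans 0 for cKO versus WT and not for CD25lo versus CD25hi (-0.57), and Hdac9 lies right of 0 for cKO versus WT (1.04) and left of it for CD25lo versus CD25hi Tregs (-2.15). The Plagl1 interval for cKO versus WT reaches -0.01.

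Of all 16241 genes tested with limma at a Benjamini-Hochberg adjusted p under 0.05, 3.52% differed between cKO and WT Tregs, 2.04% higher and 1.48% lower in cKO. Between CD25lo and CD25hi Tregs 1.62% differed, 0.61% higher and 1.01% lower in CD25lo. Of the 6 genes, 3 passed in the first comparison (Gpr83, Ecm1 and Capg, all lower) and 6 in the second, all lower. The groups did not overlap for 8.54% of all genes between cKO and WT Tregs and for 24.5% between the bins, against 4 and 6 of the 6 genes. Because the genes were chosen on these data, nothing is read from these counts. The counts moved with the processing. In the first comparison 1 passed with sex as a term (Ecm1), and 2 passed with no filter on low values (Gpr83 and Ecm1) and without WT replicate 1, 2 or 3. With only the groups compared 3 passed, of which Hdac9 was higher and Gpr83 and Ecm1 lower. In the second, 5 passed with edgeR, 4 with a replicate block, with no filter, with only the groups compared and without CD25hi replicate 1 or 2 or CD25lo replicate 1 or 2, and 3 without CD25hi replicate 3 (Foxp3, Gpr83 and Ecm1).

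Sex, read here from the data, differed between the bulk groups. Xist, transcribed from the inactive X chromosome of females, put all 5 cKO libraries and WT replicate 3 as female, and Ddx3y, on the Y chromosome, put the other 3 WT libraries and the 5 sorted libraries as male. The Xist level was 34037.7 to 43337.1 normalized counts among cKO Tregs, beside 39239.4 for WT replicate 3. Among females, Foxp3 was at 17803.6 to 19651.6 normalized counts in cKO Tregs and at 18053.2 in WT replicate 3. Gpr83 was at 1986.5 to 3484.7 in cKO Tregs and at 5290.2 in that library. Ecm1 was at 2478.6 to 3523.7 in cKO Tregs, against 7302.0. Capg was at 2911.9 to 4937.6 in cKO Tregs, against 6070.9. For these 3 genes the female WT library was above every cKO library. All WT libraries were above all cKO libraries for them, so this was fixed beforehand and adds no support.

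With sex as a term the log2 differences between cKO and WT Tregs were 0.04 for Foxp3 (SE 0.10), -0.94 for Gpr83 (SE 0.19), -1.34 for Ecm1 (SE 0.15) and -0.56 for Capg (SE 0.19). Hdac9 was at 1.60 (SE 0.56) and Plagl1 at -0.03 (SE 0.34). WT replicate 3 had 151.5 normalized counts of Hdac9 and 1416.1 of Plagl1. Only 1 WT library is female, so sex and other traits of that library cannot be told apart. Markers of other cells gave sums of 19437.4 to 25645.1 normalized counts in cKO and 14760.4 to 20145.7 in WT Tregs for B cells, and 568.6 to 708.2 in cKO and 648.6 to 1210.0 in WT Tregs for CD8 T and NK cells. T cell markers summed to 200270.9 or more in every library.

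Values within the 2 sets of bulk libraries are given as a description, the sets having been drawn after the data were seen. All cKO libraries were below all WT libraries for Gpr83, Ecm1 and Capg, and above them for Hdac9. The direction of these genes within each set was thus fixed beforehand and adds no support. WT replicate 4 is the only WT library of the set with low immediate early genes. Where immediate early genes were low, Gpr83 had 1986.5 to 3006.8 normalized counts in cKO replicates 1 to 3, against 5229.0 in WT replicate 4. Where they were high, it had 2625.7 to 3484.7 in cKO replicates 4 and 5, against 4605.5 to 5290.2 in WT replicates 1 to 3. Ecm1 was at 2478.6 to 2901.7 in cKO Tregs against 7452.0 in the low set, and at 2807.7 to 3523.7 in cKO Tregs against 6753.1 to 7302.0 in the high set. Capg was at 2911.9 to 4409.1 in cKO Tregs against 5162.2 in the low set, and at 4226.8 to 4937.6 in cKO Tregs against 5625.9 to 6070.9 in the high set. Hdac9 was higher in cKO Tregs in both sets, at 445.8 to 525.0 against 168.5 and at 393.3 to 494.1 against 151.5 to 334.2. Foxp3 overlapped in the high set, at 17803.6 to 18136.6 in cKO Tregs against 18053.2 to 19891.3 in WT Tregs. In the low set it was at 18375.3 to 19651.6 in cKO Tregs, below the 21324.1 of WT replicate 4. Plagl1, which overlapped over all bulk libraries, was higher in cKO than in WT Tregs in both sets. It was at 1167.2 to 1499.4 against 643.4 in the low set and at 1423.3 to 1532.5 against 831.0 to 1416.1 in the high set. With the immediate early level as a term, an alternative chosen after the data were seen, the log2 differences were -0.10 for Foxp3 (SE 0.06), -0.86 for Gpr83 (SE 0.12), -1.27 for Ecm1 (SE 0.09), -0.40 for Capg (SE 0.10), 1.13 for Hdac9 (SE 0.36) and 0.57 for Plagl1 (SE 0.20). Leaving out any 1 library kept the cKO versus WT difference of Gpr83 between -0.93 and -0.73, of Ecm1 between -1.36 and -1.23, and of Capg between -0.53 and -0.34.

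Set against Foxp3 in the same library, which cancels the scaling between libraries, Gpr83 was at 15.1% ± 3.0 of Foxp3 in cKO Tregs (SD, n = 5) and 25.5% ± 2.5 in WT Tregs (SD, n = 4). Ecm1 was at 15.7% ± 2.4 in cKO Tregs and 36.3% ± 2.9 in WT Tregs. Both genes were thus lower relative to Foxp3 as well as in themselves, with no overlap of libraries. Capg overlapped on this scale, at 15.4% to 27.7% in cKO Tregs and 24.2% to 33.6% in WT Tregs. Hdac9 was at 2.50% ± 0.21 in cKO Tregs and 1.21% ± 0.46 in WT Tregs.

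In the bins, Ecm1 was at 31.6% ± 1.4 of Foxp3 in CD25lo Tregs (SD, n = 2) and 41.5% ± 4.9 in CD25hi Tregs (SD, n = 3). Gpr83 was at 18.5% ± 1.9 in CD25lo Tregs and 30.9% ± 3.0 in CD25hi Tregs. Capg, at 25.1% ± 1.1 in CD25lo Tregs and 27.6% ± 0.8 in CD25hi Tregs, came closest to the Foxp3 step itself. Il2ra, whose protein set the gate, was at 96.6% ± 6.2 of Foxp3 in CD25lo Tregs and 176.3% ± 13.0 in CD25hi Tregs.

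**Figure D3:**
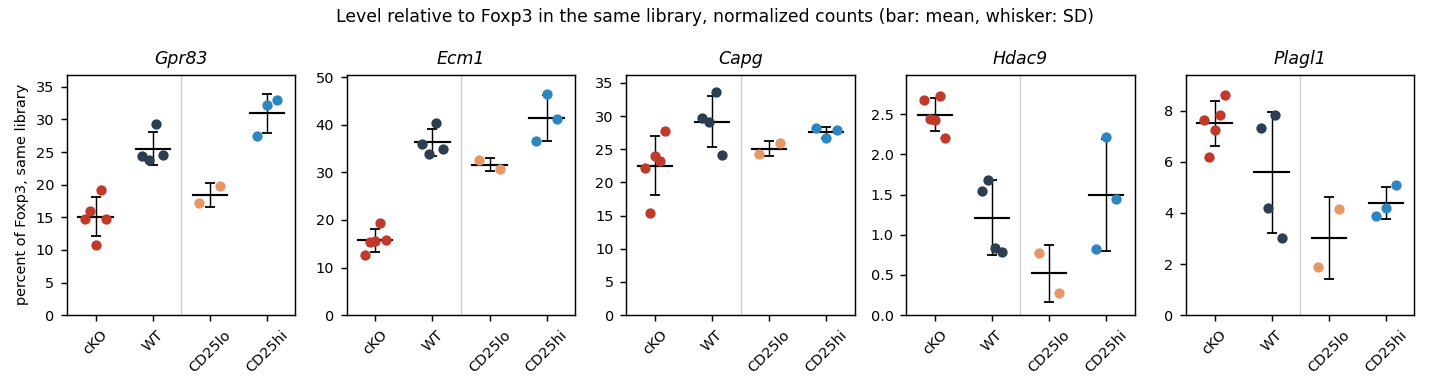
Level of Gpr83, Ecm1, Capg, Hdac9 and Plagl1 as a percent of Foxp3 in the same library, 1 point per library, with mean and SD per group. Ecm1 of cKO Tregs (12.6% to 19.4%) lies below every library of the other 3 groups, whereas Capg overlaps between cKO and WT Tregs.

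On the log2 scale, with the CD25lo mean at 0% and the CD25hi mean at 100%, Gpr83 was at -3.3% in cKO Tregs and 61.5% in WT Tregs. Ecm1 was at -78.6% in cKO Tregs and 56.6% in WT Tregs. Capg was at 12.6% in cKO Tregs and 78.1% in WT Tregs. Foxp3 was at 47.4% in cKO Tregs and 60.05% in WT Tregs. For these 4 genes bulk WT Tregs fell between the bins.

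Hdac9, at 125.4% in cKO Tregs and 76.8% in WT Tregs, and Plagl1, at 139.4% in cKO Tregs and 101.9% in WT Tregs, had cKO means above the CD25hi mean. The cKO and CD25hi libraries of Hdac9 overlapped, and for Plagl1 the WT mean was above the CD25hi mean as well. All libraries of the bins were male by Xist and Ddx3y and all cKO libraries female, so on this axis sex and genotype cannot be told apart.

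The genes whose levels most resembled those of each member over the 14 libraries were sought among 5825 genes with a mean of at least 1000 normalized counts. The measure was Pearson r of log2(normalized count + 1). It is a description, since all points share the 4 groups. For Foxp3 these were Adamts6 (r = 0.90), a secreted metalloprotease, Slc19a1 (r = 0.90), the reduced folate carrier, Cdk6 (r = 0.89), a cell cycle kinase, Coro2a (r = 0.89), a coronin, and Ahcyl2 (r = 0.87). Like Foxp3, each of the 5 was lowest in CD25lo and highest in CD25hi Tregs. Ahcyl2 was at 6970.7 ± 672.4 normalized counts in cKO, 7980.5 ± 318.4 in WT, 5638.7 ± 137.0 in CD25lo and 10603.0 ± 493.8 in CD25hi Tregs.

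Gpr83 was most like Il2ra (r = 0.97) and Mbnl3 (r = 0.95), an RNA-binding splicing regulator. Il2ra was at 15511.9 ± 1685.3 normalized counts in cKO Tregs (SD, n = 5), 26037.0 ± 2160.2 in WT Tregs (SD, n = 4), 14854.1 ± 243.8 in CD25lo Tregs (SD, n = 2) and 40165.4 ± 888.6 in CD25hi Tregs (SD, n = 3). As with Gpr83, cKO and CD25lo Tregs were close together. Ecm1 was most like Socs2 (r = 0.97), a feedback inhibitor of cytokine signaling, and Ncoa3 (r = 0.96), a nuclear receptor coactivator.

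Socs2 shared with Ecm1 an order in which cKO Tregs were the lowest group, at 611.2 ± 53.16 normalized counts, followed by CD25lo Tregs at 1044.5 ± 67.1. WT Tregs were at 1658.2 ± 269.3 and CD25hi Tregs at 2449.1 ± 348.1. Capg was most like Cops4 (r = 0.90), a subunit of the COP9 signalosome, and Rgs10 (r = 0.90), a regulator of G protein signaling. Hdac9 was most like Ndufa4 (r = 0.93), a subunit of the mitochondrial respiratory chain, and Atp9a (r = 0.90), and Plagl1 like Sh3rf1 (r = 0.93) and Axl (r = 0.92), a receptor tyrosine kinase.

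Among the 6 genes themselves, Gpr83 and Ecm1 were the most alike (r = 0.91), followed by Gpr83 and Capg (r = 0.76) and Ecm1 and Capg (r = 0.75). Foxp3 was nearest to Gpr83 (r = 0.72). Hdac9 and Plagl1 were like each other (r = 0.63) and had r of -0.0023 and -0.0084 with Gpr83. With the group means taken away, r was 0.40 for Gpr83 and Ecm1 and -0.37 for Hdac9 and Plagl1, so the likeness lay mostly between groups. On that scale only Axl stayed among the nearest genes of the same member, with Plagl1 (r = 0.92).

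**Figure D4:**
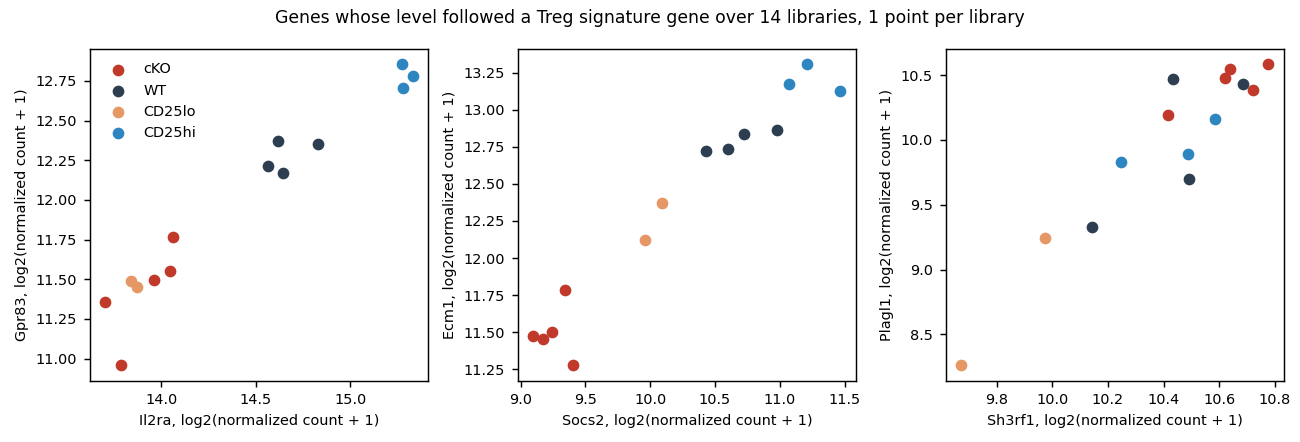
Levels on the log2(normalized count + 1) scale of Gpr83 against Il2ra, Ecm1 against Socs2 and Plagl1 against Sh3rf1, 1 point per library, colored by group. cKO and CD25lo Tregs share the low end for Gpr83 and Il2ra (r = 0.97), and for Ecm1 and Socs2 (r = 0.97) cKO Tregs lie below CD25lo Tregs.

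A wider list of 35 other Treg signature genes split by comparison. It and the lists that follow were likewise chosen with earlier results of these data known. Their shares beside those of all genes, and the adjusted p values of their genes, are therefore a description. Nothing is read from an excess over all genes. Between cKO and WT Tregs 11 of 35 changed (31.4%, against 3.52% of all genes), 9 higher and 2 lower in cKO, and the list's median log2 difference was 0.21 beside 0.05 over all genes tested. The split of higher to lower was 5 to 4 without WT replicate 4, 5 to 3 without cKO replicate 5 and with a replicate block, 6 to 3 without cKO replicate 1, 5 to 2 without cKO replicate 3 or WT replicate 3, 9 to 5 with DESeq2, 13 to 4 with the immediate early level as a term and 1 to 2 with sex as a term. Between CD25lo and CD25hi Tregs 13 of 35 changed (37.1%, against 1.62% of all genes), all lower in CD25lo, with a median of -0.51 beside 0.00. All calls are from limma with Benjamini-Hochberg adjustment over all genes tested.

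The genes that rose in cKO Tregs were led by Fgl2, an inhibitory secreted fibrinogen-like protein, at 2064.1 ± 480.5 normalized counts in cKO Tregs and 960.8 ± 145.4 in WT Tregs (log2 difference 1.08, SE 0.16, adjusted p = 0.000727). Lag3, an inhibitory receptor for MHC class II, rose by 1.01 on the log2 scale (SE 0.17, adjusted p = 0.00274). Tigit, an inhibitory receptor for nectin-like ligands, was at 4845.0 ± 1059.3 normalized counts in cKO Tregs and 2423.5 ± 568.8 in WT Tregs (adjusted p = 0.00196). Penk, the enkephalin precursor, and Il1rl1, the IL-33 receptor ST2, rose by 0.92 (SE 0.23, adjusted p = 0.0328) and 0.84 (SE 0.13, adjusted p = 0.00147). Of these 5 calls only that of Fgl2 held with sex as a term (adjusted p = 0.0471 with limma).

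The 2 that fell in cKO Tregs were Socs2 and Il2ra, both targets of STAT5. Socs2 fell by 1.43 on the log2 scale (SE 0.12, adjusted p = 1.95e-06) and Il2ra by 0.75 (SE 0.07, adjusted p = 1.51e-05). Both held with sex as a term, at adjusted p of 0.00527 and 0.0316 with limma. Both also fell in CD25lo against CD25hi Tregs, by 1.22 (adjusted p = 0.000882) and by 1.43, where Il2ra follows from the gate. In CD25lo Tregs the other large decreases were those of Penk (-1.69, SE 0.32, adjusted p = 0.00982), of Lrrc32, which encodes the TGF-β docking receptor GARP (-1.36, SE 0.12, adjusted p = 1.02e-05), and of Cish, a STAT5 feedback inhibitor (-0.99, SE 0.12, adjusted p = 0.000334).

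Of the 35 genes, 4 changed in both comparisons. Socs2 and Il2ra were lower in both, like Gpr83, Ecm1 and Capg. Penk and Ikzf2 rose in cKO Tregs but fell in CD25lo Tregs (the Hdac9 means were placed likewise). Ikzf2, encoding the transcription factor Helios and named after its values were seen, was at 34971.2 ± 1943.2 normalized counts in cKO Tregs and 29415.3 ± 1857.0 in WT Tregs (log2 difference 0.25, SE 0.06, adjusted p = 0.0205). With sex as a term 3 of the 35 genes (Fgl2, Socs2 and Il2ra) passed between cKO and WT Tregs, and without cKO replicate 3 or WT replicate 3, 7 passed. The call of Penk was lost with CD25lo replicate 1 or 2 left out between the bins, and without cKO replicates 1, 3, 4 or 5 or WT replicates 3 or 4 between cKO and WT Tregs. The calls of Ikzf2 were lost with 6 of the 14 libraries left out in turn between cKO and WT Tregs and with 4 between the bins. Between the bins the count was 5 without CD25lo replicate 1, 5 without CD25lo replicate 2, 6 without CD25hi replicate 1 and 7 without CD25hi replicate 3.

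**Figure D5:**
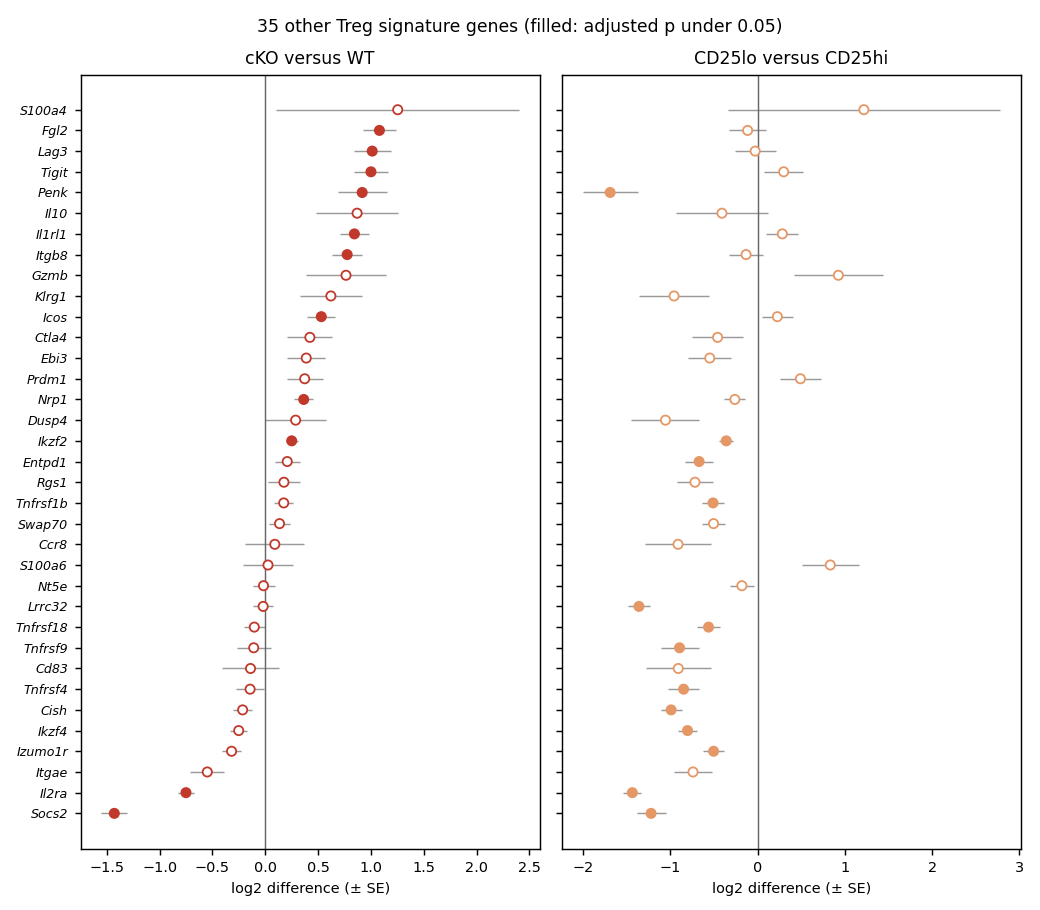
Log2 difference with its SE (lines) for 35 other Treg signature genes, cKO versus WT (left) and CD25lo versus CD25hi Tregs (right), ordered by cKO versus WT. Filled points passed limma at an adjusted p under 0.05: 9 higher and 2 lower in cKO Tregs, and 13 lower in CD25lo Tregs.

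Of 10 genes that are low in Tregs relative to other CD4+ T cells, 4 changed between cKO and WT Tregs (40.0%, against 3.52% of all genes), 2 in each direction, with a median log2 difference of -0.19 beside 0.05. Between the bins 3 of 10 changed (against 1.62% of all genes), all higher in CD25lo, with a median of 0.53 beside 0.00. Il7r, the IL-7 receptor chain CD127, was at 11641.0 ± 1294.3 normalized counts in cKO Tregs and 5778.6 ± 1062.1 in WT Tregs (log2 difference 1.02, SE 0.11, adjusted p = 3.29e-05), and Pde3b, a phosphodiesterase, rose by 0.81 (adjusted p = 0.0386). Igfbp4, a binding protein of insulin-like growth factors, fell by 1.90 (adjusted p = 1.02e-06), and Bach2, a repressor of effector programs, by 0.40 (adjusted p = 0.029). With sex as a term only the call of Igfbp4 held of these 4 (adjusted p = 0.00521 with limma), and that of Pde3b was lost without any 1 of 9 libraries and that of Bach2 without any 1 of 5. Pde3b, Cd40lg, the ligand of CD40, and Tcf7, a transcription factor of naive T cells, rose in CD25lo against CD25hi Tregs, by 1.90 (adjusted p = 0.00193), 0.88 (adjusted p = 0.00449) and 0.63 (adjusted p = 0.00136).

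Of 28 factors that act on the Foxp3 gene, 4 changed between cKO and WT Tregs (14.3%, against 3.52% of all genes), with a median log2 difference of -0.04 beside 0.05. With the immediate early level as a term 7 changed. Stat5b, which carries the IL-2 signal to Foxp3, rose by 0.27 (SE 0.05, adjusted p = 0.00647), and Gata3 by 0.45 (SE 0.10, adjusted p = 0.0176). The DNA methyltransferase Dnmt3a fell by 0.29 (SE 0.06, adjusted p = 0.00771), and Tet3, which removes methyl marks, fell by 0.25 (SE 0.06, adjusted p = 0.0372). Between the bins 1 of 28 changed (3.57%, against 1.62% of all genes, median 0.05 beside 0.00). This was Nr4a3, a nuclear receptor induced by antigen receptor signals, which fell by 0.70 (SE 0.17, adjusted p = 0.0435 with limma). An unadjusted p under 0.05 was reached by 10 of the 28. The share of all genes at that unadjusted threshold is not given here, so nothing is read from this count. The call of Nr4a3 was lost under edgeR, which called 0 of 28, with sex as a term and with no filter on low values. It was also lost with 8 of the 14 libraries left out in turn. DESeq2 called 2 of the 28. Between cKO and WT Tregs 0 of 28 passed with sex as a term, and 2 passed without cKO replicate 5, where the calls of Gata3 and Tet3 were lost.

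Of 24 protein partners and modifiers of FOXP3, 4 changed between cKO and WT Tregs (16.7%, against 3.52% of all genes), with a median log2 difference of -0.01 beside 0.05. Foxp1 and Foxp4, forkhead proteins that pair with FOXP3, fell by 0.30 (SE 0.07, adjusted p = 0.015) and by 0.28 (SE 0.06, adjusted p = 0.014). Ikzf1 fell by 0.25 (adjusted p = 0.048), and Stub1, a ubiquitin ligase that acts on FOXP3, rose by 0.37 (adjusted p = 0.049). With edgeR 2 of the 24 passed and with sex as a term 0, and without cKO replicate 1, cKO replicate 3 or WT replicate 1, 1 passed. The calls of Stub1 and Ikzf1 were lost under edgeR. Without cKO replicate 5, WT replicate 2, CD25hi replicate 1 or CD25hi replicate 3, 2 passed. Between the bins limma called 0 of 24 (against 1.62% of all genes, median -0.08 beside 0.00), edgeR called 0 and DESeq2 called 3. An unadjusted p under 0.05 was reached by 6, again without the share of all genes, and nothing is read from it.

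Families of the 6 genes are described for cKO versus WT Tregs, and between the bins only where stated. Of the forkhead P family, Foxp1 and Foxp4 fell in cKO Tregs where Foxp3 differed by -0.07, and Foxp2 averaged 0.94 normalized counts in cKO and 0.25 in WT Tregs. Of the other class IIa deacetylases, Hdac4, Hdac5 and Hdac7 had log2 differences between cKO and WT Tregs of 0.14 (SE 0.08), -0.15 (SE 0.09) and 0.06 (SE 0.07), with overlapping libraries. In the gelsolin family Gsn, Svil and Flii had log2 differences of 0.02 (SE 0.13), 0.04 (SE 0.08) and -0.02 (SE 0.07). Plag1 and Plagl2 differed by -0.47 (SE 0.50) and 0.04 (SE 0.06). Of 11 imprinted genes that could be tested, Plagl1 included, 2 changed between cKO and WT Tregs (18.2%, against 3.52% of all genes). Igf2r rose by 0.33 (adjusted p = 0.00962 with limma) and Zrsr1 by 0.79 (adjusted p = 0.0182 with limma) in cKO Tregs, and neither call held with sex as a term. Between the bins 2 of the 11 changed (18.2%, against 1.62% of all genes), Plagl1 and Igf2r. Igf2r fell in CD25lo Tregs by 0.42 (adjusted p = 0.0252), a call lost without CD25lo replicate 2, CD25hi replicate 2 or CD25hi replicate 3.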

How the data were processed

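The authors mapped single-end reads of 50 bp (STAR 2.7.2b, GRCm38). For each gene they deposited the signal of every library, a normalized count obtained by scaling reads with DESeq2 1.24.0 size factors and kept to 1 decimal. The counter was not given in the sources used here. Deposited stabilized values and the authors' own comparisons (fold changes and p-values) were not used. Low values are multiples of the value of 1 read, and 99.97% to 100% of values per library came out as whole reads within 0.055 normalized counts. Replicates were deposited as separate libraries, and no pair of them agreed within sampling noise.

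Counting error alone gave a coefficient of variation of at most 0.79% for Foxp3 and 12.3% for Hdac9 in a group. Reads in genes numbered 30055573 to 35226685 per library. Groups followed the labels. Values being normalized and not raw counts, limma-trend on log2(normalized count + 1) was the test, with 4 group means over all 14 libraries (R 4.3.3, limma 3.58.1), over genes that reached 10 normalized counts in 2 or more libraries, with a threshold of 0.05 on p adjusted by Benjamini-Hochberg. Fold changes on this scale understate those of low genes. The fit was tested on simulated data. Alternatives were edgeR 4.0.16 and DESeq2 1.42.0 on recovered reads, other pseudocounts (0.5 and 5), filters, TMM scaling, only the groups compared, a replicate block, a sex term by Xist, a term for the level of immediate early genes, as the mean log2 value of 10 such genes (added after seeing the data), and each library left out in turn. Seed matches used GENCODE transcripts on GRCm38, and promoter windows and miRNAs came from RefSeq (GRCm38.p6). Tables were handled with Python 3.11.15.

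The 6 genes and all gene lists were chosen with earlier results of these data known. Named genes are the 6 genes, up to 5 called genes per list, direction and comparison with the largest absolute log2 difference, and the most similar genes (5 for Foxp3 and 2 for the others), with Il2ra, Xist and Ddx3y as context.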

Additional observations from a re-analysis of the deposited data

How the results depend on the processing

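Gpr83, Ecm1 and Capg stayed lower, and Hdac9 higher, in cKO than in WT Tregs, and all 6 genes stayed lower in CD25lo than in CD25hi Tregs, under each alternative run. With sex as a term the cKO versus WT log2 difference was 0.0395 for Foxp3, 1.60 for Hdac9 and -0.0323 for Plagl1, 22 genes passed in all, and the counts were 1 of the 6 genes, 3 of the other Treg signature genes, 0 of the factors acting on Foxp3 and 0 of its partners. In the bins that term left 0 of the factors. DESeq2 called 895 genes between cKO and WT Tregs and 674 between the bins, where it called 2 factors and 3 partners. edgeR with TMM or DESeq2 size factors called 2 partners between cKO and WT Tregs and 0 factors between the bins. With no filter on low values these counts were 2 and 0, and 8 Treg signature genes passed between the bins. A fit of only the groups compared called 160 genes and 2 partners between the bins. The causes were not tested.

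Taken over all groups, libraries with the same replicate number did not deviate together (16 pairs, r from -0.409 to 0.173). Others did: WT replicate 4 had r of 0.435, 0.394 and 0.232 with cKO replicates 1, 2 and 3 and of -0.409 and -0.533 with cKO replicates 4 and 5, and cKO replicates 4 and 5 had r of 0.108 to 0.353 with WT replicates 1 to 3. Deviations were taken from the group mean and sum to 0 within a group. The r of 1 library with the libraries of another group thus cannot all share a sign, and these values are not independent. The sets of bulk libraries are not in the model. Whether CD25lo and CD25hi libraries of the same number share mice cannot be decided by this check. Set against their own mean, the 2 CD25lo libraries mirror each other. CD25hi replicate 1 thus had r of 0.173 with CD25lo replicate 1 and of -0.173 with CD25lo replicate 2. With the immediate early level as a term, chosen after seeing the data, 887 genes and 17 other Treg signature genes passed between cKO and WT Tregs, with 7 factors, and 476 genes passed between the bins, with 2 factors and 2 partners. With a replicate block 290 genes passed between cKO and WT Tregs, with 1 factor and 1 partner, and 105 between the bins, with 8 Treg signature genes.

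As each library was left out, between cKO and WT Tregs 349 to 666 genes passed, with 2 to 3 of the 6 genes, 7 to 11 Treg signature genes, 2 to 6 factors and 1 to 4 partners. Between the bins 91 to 377 genes passed, with 3 to 6 of the 6 genes, 5 to 16 Treg signature genes, 0 to 2 factors and 0 to 2 partners. The difference between the bins ranged from -1.70 to -0.72 for Plagl1. Of 33 calls on named list genes over both comparisons, 19 were lost with sex as a term. Among those lost, only that of Nr4a3 was between the bins. Between cKO and WT Tregs only the calls of Fgl2, Igfbp4, Il2ra and Socs2 held with that term. Of the 33 calls, 13 were lost with the block and 13 with at least 1 library left out. DESeq2 lost 0, the immediate early level as a term lost 1 (Stub1), and 0 turned round. Depth limits Hdac9 most, with 39 reads in its lowest library.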
